A study of Mus musculus with 7 samples.

Results

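Fgf21 and Gdf15 encode a pair of secreted hormones, fibroblast growth factor 21 and growth differentiation factor 15, that cells release under mitochondrial stress and that are often called mitokines. The 2 genes are among 22877 genes in the authors' table of oocyte RNA. Fgf21 was chosen by its measured difference between genotypes, the largest rise with the pseudocount used here, and Gdf15 was named with it from the same contrast. Their values are therefore a description, with no test.

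RNA was sequenced from oocytes taken out of secondary follicles of 8-week-old C57BL/6J females. The Mfn1-/- mice carried floxed Mfn1 alleles and a Cre transgene under the Zp3 promoter (Mfn1fl/fl/Zp3-Cre), which is active in growing oocytes, so that the granulosa cells kept the gene. The controls were wild-type (WT) littermates, and the labels give no drug treatment for either group. There were 4 WT and 3 Mfn1-/- libraries of 5 pooled oocytes each, amplified as poly(A) cDNA by Smart-Seq2, where the number of WT libraries follows the sample labels and is larger than in the series' design text. For each gene the values are the authors' mean of normalized counts in each genotype, so the spread between libraries and the depth of each are unknown, and no difference below has a replicate check. Where a pair of means is given, the Mfn1-/- mean comes first.

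Differences are given as log2 of the Mfn1-/- mean over the WT mean after adding 0.1 to each, which shrinks the differences of weakly expressed genes. A gene was called higher or lower when this difference was at least 1 in size, that is, past 2-fold. By this rule 1118 genes were higher and 631 lower in Mfn1-/- oocytes, so that 63.9% of the calls were higher. Among genes whose mean over both genotypes was at least 1, 6255 in all, the median difference was 0.16. When that shift was subtracted from every gene, 811 genes were higher and 926 lower, and 46.7% of the calls were higher. Values relative to the shift are given below as shift-subtracted differences for Fgf21, for Gdf15 and wherever they change a call.

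Mfn1 itself, which encodes an outer-membrane GTPase that fuses mitochondria, had the authors' mean of 0.0577 in Mfn1-/- against 0.616 normalized counts in WT oocytes (log2 difference -2.18). The direction is that of the labels. All 15 oocyte markers had higher levels than Mfn1 in both genotypes, with a summed level of 4573 in Mfn1-/- against 4113 in WT oocytes. Of them 0 were called, where 4.89% of all genes were called higher and 2.76% lower. The most abundant marker was Ooep, a gene of the subcortical maternal complex, with means of 1310 and 1120.

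Both hormones are known as targets of the integrated stress response. In that pathway a kinase such as HRI (Eif2ak1), PERK (Eif2ak3) or GCN2 (Eif2ak4) phosphorylates the initiation factor eIF2, general translation falls, and the transcription factor ATF4 is made and switches on genes of amino acid supply and stress defence. FGF21 comes mainly from the liver and acts through FGF receptors with the co-receptor beta-Klotho, while GDF15, a distant member of the TGF-beta superfamily, acts on hindbrain neurons through GFRAL and RET.

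In WT oocytes Fgf21 had a mean of 0.113 normalized counts, and in Mfn1-/- oocytes it had a mean of 18.6. Its level rank among all genes moved from 13051 in WT, above 42.8% of the genes, to 1237 in Mfn1-/- oocytes, above 94.6% of them. The log2 difference was 6.46, or 6.29 shift-subtracted, and the ratio of the means was 165. Gdf15 behaved otherwise. In Mfn1-/- oocytes its mean was 0.421 normalized counts, at level rank 8951, against 0.566 at rank 7666 in WT oocytes, and its log2 difference was -0.35, or -0.52 shift-subtracted. By difference Fgf21 ranked 1 and Gdf15 ranked 19960 from the highest rise. Of the 2 genes 1, Fgf21, was called higher and 0 were called lower, where 4.89% of all genes were called higher and 2.76% lower (3.97% and 1.50% of the 15620 protein-coding genes). Because Fgf21 was chosen by this contrast, nothing is read from that count.

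The order of the 2 genes turned around between genotypes. Among low values, the part above the table's lowest value of 0.01 fell with transcript length roughly in inverse proportion, so levels were compared between genes as values roughly per length. On that scale the level of Gdf15 was 5.01 times that of Fgf21 in WT oocytes, and the level of Fgf21 was 44.2 times that of Gdf15 in Mfn1-/- oocytes. The means hide the single libraries. For Fgf21 the sum over the 3 Mfn1-/- libraries was 55.8 normalized counts and the sum over the 4 WT libraries 0.452, and how these sums were shared among libraries was not analysed here.

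**Figure D1:**
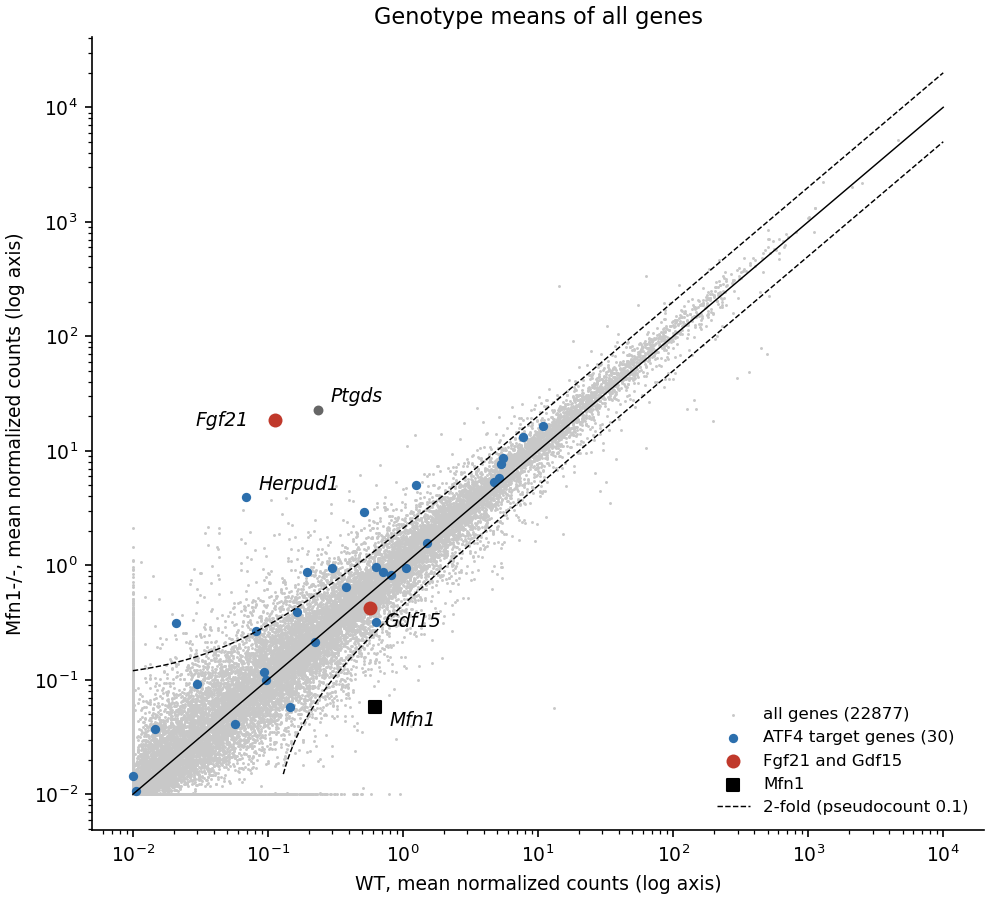
The authors' mean normalized counts of each of 22877 genes in WT (x, log axis) and Mfn1-/- oocytes (y, log axis), with the solid line at equal means and dashed lines at 2-fold with a pseudocount of 0.1. Fgf21 (18.6 against 0.113) lies far above the upper dashed line, while Gdf15 (0.421 against 0.566) lies just under the line of equal means.

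Next below Fgf21 by difference came Ptgds, a prostaglandin D2 synthase, with a mean of 22.7 in Mfn1-/- against 0.233 in WT oocytes and a log2 difference of 6.10. It was followed by Usp17lb, a deubiquitinase gene, at 4.75 and by Herpud1, a component of endoplasmic reticulum-associated degradation, at 4.60. Krtap4-13 and Mt1, which encodes metallothionein 1, came next at 4.34 and 4.28, and Krtap4-13 had the lowest mean of the table, 0.01, in WT oocytes. There was thus a gap of more than 1 log2 unit between Ptgds and Usp17lb.

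The genes nearest to Fgf21 by Euclidean distance over the 2 genotype means, on the log2 scale with the same pseudocount, were Ptgds (distance 0.71), Usp17lb (1.81), Tsga8 (2.13), Zscan4f (2.14) and Herpud1 (2.23). Gdf15 lay in a dense region. Among its nearest genes were Rbm26, Gm14549, Gm4613 and Fyco1, at distances of 0.01 to 0.04. The genes ranked next to Gdf15 by difference were Gm18255, Dlx2, Gm15884, Taf3 and Ckap2, all at -0.35.

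Fgf21 lies on the minus strand of chromosome 7 at chr7:45613886-45615490 (GRCm38), and no other annotated gene overlaps it. On its downstream side the nearest genes are Gm31479, Bcat2 and 0610005C13Rik, of which only Bcat2, a branched-chain aminotransferase, was analysed here, with means of 0.498 in Mfn1-/- against 0.508 in WT oocytes. On the upstream side Fut1, a fucosyltransferase gene, starts 1798 bases away on the other strand. Its WT mean was the lowest of the table, 0.01, and its Mfn1-/- mean was 0.254 (log2 difference 1.69), so it was called higher at a level far under that of Fgf21. The next genes on that side, Izumo1 and Rasip1, had means of 0.0149 and 0.0180 (-0.04) and of 0.0252 and 0.01 (0.19), close to the lowest value.

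Gdf15 lies on the minus strand of chromosome 8 at chr8:70629393-70632456 (GRCm38), also with no overlapping gene. Of its neighbours Lrrc25 and Gm45546 were not analysed here, and Ssbp4 had a difference of 0.71. On the upstream side Pgpep1, Lsm4 and Jund had differences of 0.47, 0.32 and 0.53. Among the genes analysed at this locus, Gdf15 was thus the one with a difference below 0, and no neighbour of it was called. Neither Fgf21 nor Gdf15 shares a stretch of 75 bases at 95% identity with a transcript of another gene.

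The promoters are shown because stress-responsive factors are known to act on both genes through their upstream regions. The 250 bases before the start of each gene are given on the gene's strand, the minus strand, 5′ to 3′ (RefSeq, GRCm38.p6), with Fgf21 at chr7:45615491-45615740 and the longer transcript of Gdf15 at chr8:70632457-70632706. Capitals mark matches, on either strand, to TGATGNAA, the core of the element that ATF4 binds with a C/EBP partner, to CACGTG, an E-box that TFE3 and TFEB bind, or to TGACGTGG, an element bound by XBP1.
Fgf21: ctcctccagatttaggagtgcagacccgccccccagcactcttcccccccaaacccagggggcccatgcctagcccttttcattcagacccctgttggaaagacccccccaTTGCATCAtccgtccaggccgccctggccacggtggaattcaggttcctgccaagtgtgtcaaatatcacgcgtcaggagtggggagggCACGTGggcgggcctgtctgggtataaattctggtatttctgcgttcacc
Gdf15: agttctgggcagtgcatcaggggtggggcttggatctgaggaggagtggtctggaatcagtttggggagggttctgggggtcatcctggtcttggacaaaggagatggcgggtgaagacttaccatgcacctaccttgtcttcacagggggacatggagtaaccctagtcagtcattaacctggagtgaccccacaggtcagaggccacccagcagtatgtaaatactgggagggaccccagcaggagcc

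The Fgf21 promoter holds TTGCATCA, the reverse complement of a TGATGNAA match, 139 to 132 bases before the start, and CACGTG 50 to 45 bases before it. The printed Gdf15 promoter holds no match to these letters. The window before the other Gdf15 start, 70632095, overlaps the first exon of the longer transcript and is not printed, and it holds CACGTG 83 to 78 bases before that start. Of 32851 promoter windows of this length, 3.45% hold TGATGNAA, 6.02% hold CACGTG and 0.563% hold TGACGTGG. No matches overlapped. A match describes the sequence and does not show that a factor binds there.

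Among the ligands of the FGF family, 14 of 22 genes were analysed, and the 1 gene called (7.14%, against 4.89% called higher among all genes) was Fgf21, which was picked for its rise. The differences of the other FGF genes ran from -0.36 to 0.62. Fgf8, an oocyte-derived factor that acts on granulosa cells, was the most abundant, with means of 21.7 in Mfn1-/- against 27.8 in WT oocytes. Fgf21 thus moved from far under Fgf8 in WT oocytes to a level close to it in Mfn1-/- oocytes, as values roughly per length.

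Of the TGF-beta superfamily ligands 19 of 33 were analysed, 1 (5.26%) was called higher and 1 (5.26%) lower, against 4.89% and 2.76% of all genes. Gdf1, known for left-right patterning, had means of 0.857 in Mfn1-/- against 0.10 in WT oocytes (log2 difference 2.26). Bmp5, a bone morphogenetic protein gene, had means of 0.158 and 0.511 (-1.24). Neither was called with a pseudocount of 1 (0.76 and -0.38). Gdf1 overlaps Cers1 on the same strand and Upf1 on the other, and Bmp5 overlaps Gm47723 on the same strand and Gm26903 on the other. Reads of these genes cannot be told apart where they overlap. The oocyte factor Gdf9, at 533 and 461, was the most abundant ligand and was not called.

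**Figure D2:**
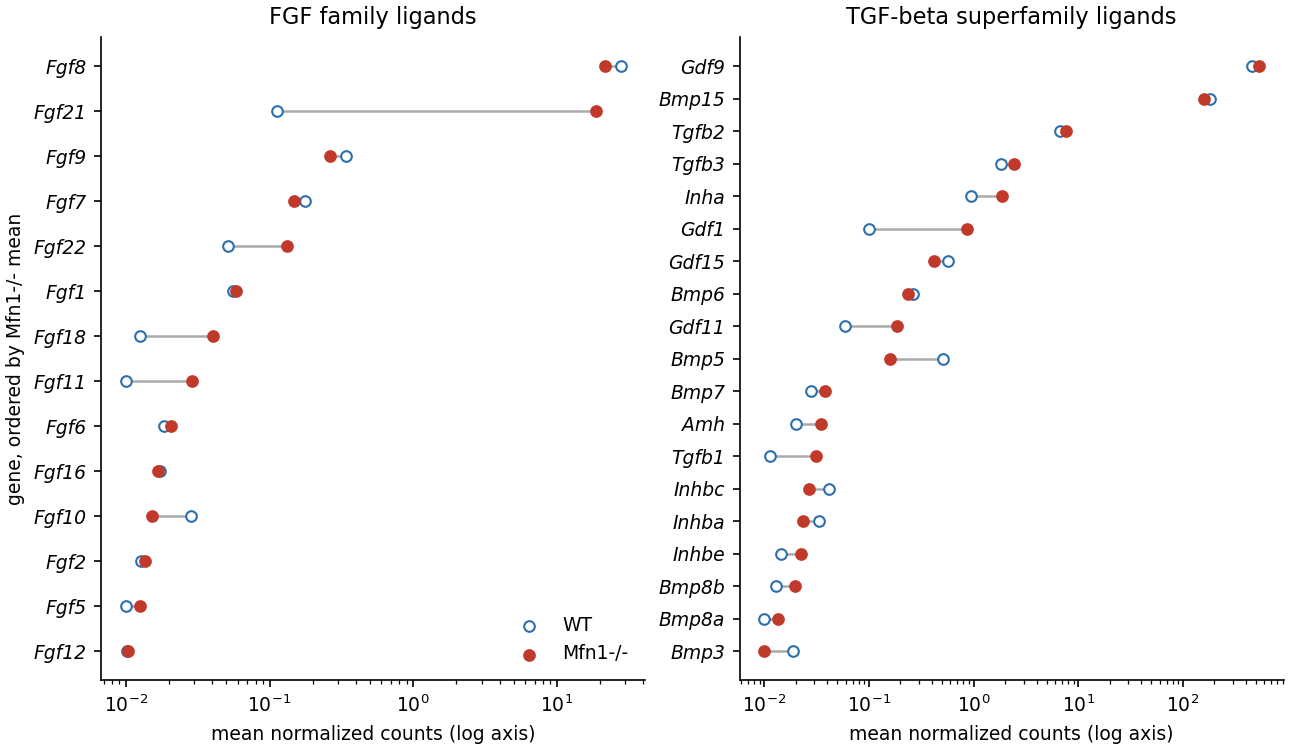
The authors' mean normalized counts (x, log axis) of the 14 FGF ligands and 19 TGF-beta superfamily ligands analysed, in WT (open circles) and Mfn1-/- oocytes (filled circles), ordered by the Mfn1-/- mean. The line joining the genotypes is longest for Fgf21, from 0.113 to 18.6, and Gdf15 stays between 0.421 and 0.566.

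Of 7 FGF receptor and co-receptor genes 5 were analysed, all with low means. Of these 0 were called, against 4.89% called higher and 2.76% lower among all genes. Fgfr3 and Fgfr4 were not analysed here. The values of Klb and Fgfr1 were seen before they were named. Klb, which encodes beta-Klotho, had means of 0.0314 in Mfn1-/- against 0.0454 in WT oocytes, and Fgfr1, its usual receptor partner, had means of 0.0825 and 0.0689. The most abundant in Mfn1-/- oocytes was Fgfrl1, a receptor without a kinase domain, at 0.124 and 0.0505, and in WT oocytes it was Fgfr1. The level of Klb lay under the WT level of Fgf21, as values roughly per length. The GDF15 receptor genes Gfral and Ret were not analysed here.

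Among 8 genes of proteases that process secreted hormones 5 were analysed, with differences from -0.68 to -0.01. Of these 0 were called, where 4.89% of all genes were called higher and 2.76% lower, so the count does not set the list apart. Prep, a prolyl endopeptidase, was the most abundant, with means of 0.648 in Mfn1-/- against 1.10 in WT oocytes.

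Of 20 transcription factors known to act on Fgf21 or Gdf15, 19 were analysed, and Xbp1 was the 1 gene called (5.26%, against 4.89% called higher among all genes). Xbp1, a transcription factor of the unfolded protein response, had means of 4.60 in Mfn1-/- against 0.998 in WT oocytes (log2 difference 2.10). The most abundant in Mfn1-/- oocytes was Cebpb, a C/EBP family factor, with means of 67.6 and 37.1 (0.86). Atf4, the most abundant in WT oocytes, had means of 55.4 and 45.5 (0.28), and Ddit3, which encodes CHOP, had means of 18.6 and 18.2 (0.03). Nfe2l2, which encodes NRF2, had means of 0.590 and 1.23, a difference of -0.95 that became a call, -1.11, once the shift was subtracted. The median difference of the list was 0.04, as over all genes (0.04). Atf4, Ddit3 and Nfe2l2 are named here after their values were seen.

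All 14 sensors and regulators of the integrated stress response were analysed, and 1 (7.14%) was called higher, against 4.89% of all genes. It was Eif2b5, a subunit of the exchange factor eIF2B, with means of 1.13 in Mfn1-/- against 0.443 in WT oocytes (log2 difference 1.18, or 0.56 with a pseudocount of 1). The most abundant, Eif2b1, had means of 97.9 and 83.3. Among the genes that relay mitochondrial stress to eIF2, the protease gene Oma1 had a difference of 0.28, Dele1 0.32 and the kinase gene Eif2ak1 -0.29, all chosen after their values were seen. Transcript levels of kinases do not measure their activity.

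Of the target genes of ATF4 all 30 were analysed, 7 (23.3%) were called higher and 0 lower, against 4.89% and 2.76% of all genes. This list, like the others here, was drawn up with earlier results of these data known, so its share is a description only. Of the 30 differences 25 were above 0, or 18 shift-subtracted, where 56.7% of all genes were above 0 before the subtraction. The median difference of the list was 0.38, or 0.22 shift-subtracted, against 0.04 and -0.13 over all genes. After the shift was subtracted 6 were called higher and 0 lower, against 3.55% and 4.05% of all genes. Sesn2, a stress-induced regulator of mTORC1, was then no longer called (1.02 against 0.86). With a pseudocount of 0.01 there were 9 higher and 1 lower (10.5% and 6.65% of all genes), and with 1 there were 3 higher and 0 lower (0.918% and 0.485%). Among the 10 target genes with a mean of at least 1, 3 were higher and 0 lower (5.82% and 3.15% of such genes). Herpud1 and Eif4ebp1, with WT means of 0.0683 and 0.516, reached that minimum only through their Mfn1-/- means. Nothing is therefore read from that count.

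Herpud1 had the largest difference of the 30, with means of 3.97 in Mfn1-/- against 0.0683 in WT oocytes (log2 difference 4.60). Eif4ebp1, a repressor of cap-dependent translation, had means of 2.92 and 0.516 (2.29), and Chac1, which degrades glutathione, had means of 5.01 and 1.25 (1.92). The next 3 belong to amino acid synthesis, and their levels were low in both genotypes. The serine synthesis genes Psat1 and Psph had means of 0.313 and 0.0210 (1.77) and of 0.939 and 0.298 (1.38), and Asns, asparagine synthetase, had means of 0.880 and 0.195 (1.73). Sesn2 had means of 0.268 and 0.0813.

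The list was not uniform. The most abundant member, the amino acid transporter subunit Slc3a2, had means of 16.6 in Mfn1-/- against 10.9 in WT oocytes and was not called (0.60). Phgdh, which precedes Psat1 and Psph in serine synthesis, had a difference of -0.15, and Trib3, a pseudokinase gene that responds strongly to ATF4 and CHOP, had a difference of -0.05. Cth, the cystathionine gamma-lyase gene, had the lowest difference, -0.80. The Gdf15 difference, -0.35, lay between those of Nupr1 (-0.16) and Slc7a11 (-0.64). Phgdh, Trib3, Cth, Nupr1 and Slc7a11 are named after their values were seen. Eif4ebp1 shares stretches of 75 bases at 95% identity with transcripts of 51 other genes, and Psph overlaps Cct6a on the other strand (log2 difference 0.94). Herpud1 and Psat1 overlap Gm15890 and Gm3329 on the other strand, and Sesn2 overlaps Gm12981 on the same strand. Gm15890, Gm3329 and Gm12981 were not analysed here. Reads of such stretches cannot be assigned to 1 gene.

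**Figure D3:**
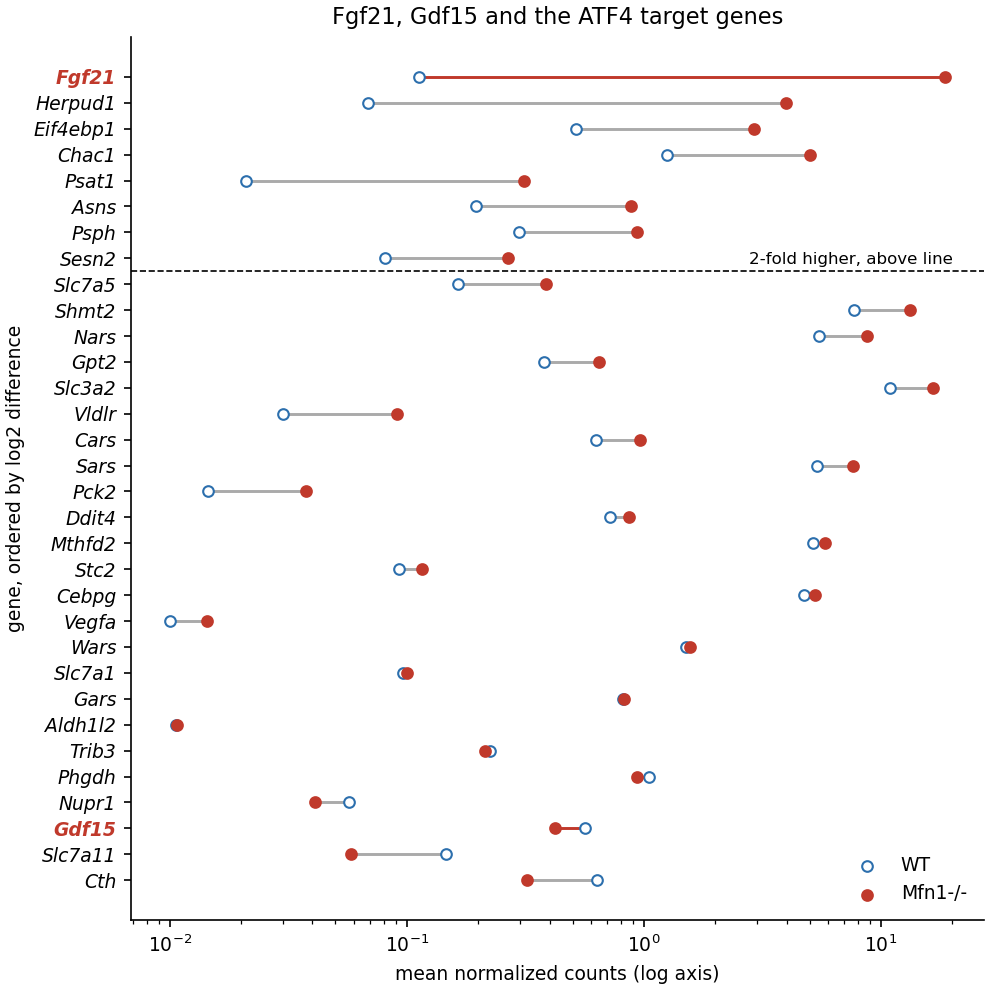
The authors' mean normalized counts (x, log axis) of Fgf21, Gdf15 and 30 ATF4 target genes in WT (open circles) and Mfn1-/- oocytes (filled circles), ordered by log2 difference with a pseudocount of 0.1. Fgf21 and 7 target genes lie above the dashed 2-fold line, and Gdf15 lies near the bottom, above Slc7a11 and Cth.

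Promoters were matched for 23 of the 30 target genes, and 8 of these hold TGATGNAA, a letter string by which some of them are known as targets. Among the 6 called genes with a promoter, 3 hold it. Their matches are shown beside that of Fgf21 in windows of 30 bases on the strand that reads TGATGNAA, with the match in capitals (RefSeq, GRCm38.p6). Slc7a11, a cystine transporter gene whose difference was -0.64, is shown because it holds 2 matches, and it was chosen after its values were seen.
Fgf21, chr7:45615611-45615640, plus strand: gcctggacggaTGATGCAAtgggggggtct
Herpud1, chr8:94386306-94386335, minus strand: ggggtgcgggcTGATGCAAcccgccgtggt
Chac1, chr2:119351038-119351067, minus strand: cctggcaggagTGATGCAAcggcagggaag
Asns, chr6:7693214-7693243, minus strand: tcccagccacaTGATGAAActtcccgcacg
Slc7a11, chr3:50443661-50443690, minus strand: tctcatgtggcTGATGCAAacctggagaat
Slc7a11, chr3:50443642-50443671, plus strand: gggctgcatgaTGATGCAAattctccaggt

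Fgf21, Herpud1, Chac1 and Slc7a11 share the 8 letters TGATGCAA, while Asns holds TGATGAAA. Nupr1 (-0.16) and Vldlr (0.56), which were not called, hold TGATGCAA as well. Genes with the same letters thus had differences from -0.64 (Slc7a11) to 6.46 (Fgf21). The other target genes with a match, Gars and Pck2, hold TGATGAAA and TGATGTAA and had differences of 0.02 and 0.26. Gars, Nupr1, Pck2 and Vldlr are likewise named after their values were seen.

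All 12 genes of the mitochondrial unfolded protein response were analysed and 0 were called, where 4.89% of all genes were called higher and 2.76% lower, so that the count hardly sets the list apart. Their median difference was 0.24, or 0.08 shift-subtracted, against 0.04 and -0.13 over all genes. The differences ranged from -0.25 to 0.80. Above 0 were 11 of the 12 differences, or 9 shift-subtracted, where 56.7% of all genes were above 0 before the subtraction. Hspe1, the co-chaperonin of mitochondrial HSP60, was the most abundant, with means of 34.6 in Mfn1-/- against 27.9 in WT oocytes.

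Among 20 other secreted metabolic and stress signals 14 were analysed, 3 (21.4%) were called higher and 0 lower, against 4.89% and 2.76% of all genes. Angptl6 and Angptl8, angiopoietin-like factors, had means of 1.59 and 0.517 (log2 difference 1.45) and of 0.791 and 0.168 (1.73). They overlap A230050P20Rik and Dock6 on the other strand (log2 differences 0.24 and 0.05), and reads cannot be told apart where genes overlap. Retn, which encodes resistin, had means of 0.332 and 0.0281 (1.75), and it shares stretches of sequence with transcripts of 4 other genes. These levels were all far under that of Fgf21 in Mfn1-/- oocytes, and with a pseudocount of 1 none of the 3 was called (0.77, 0.62 and 0.37). Adm2, an adrenomedullin family peptide, was the most abundant at 26.9 and 24.0.

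FGF21 signals through ERK, and 12 of 13 genes known to respond to ERK were analysed. Of these 2 (16.7%) were called higher and 1 lower, against 4.89% and 2.76% of all genes. Their median difference was -0.21, or -0.38 shift-subtracted, against 0.04 and -0.13 over all genes. Dusp5, an ERK phosphatase gene, had means of 0.524 in Mfn1-/- against 0.0339 in WT oocytes (log2 difference 2.22), and Ier2, an immediate early gene, had means of 7.25 and 3.39 (1.07). Dusp5 overlaps AC137853.2 on the other strand, which was not analysed here, and reads cannot be told apart where they overlap. Fos had means of 0.0566 and 0.230 (-1.08). The most abundant in WT oocytes was Spry1, a feedback inhibitor of receptor signalling, with means of 7.09 and 13.5 (-0.92), while in Mfn1-/- oocytes it was Ier2. With the shift subtracted Ier2 was no longer called (0.91) and Spry1 was called lower (-1.08). Of the 12 differences 8 were below 0, or 10 shift-subtracted, where 56.7% of all genes were above 0 before the subtraction. Dusp5, Ier2 and Fos all fell within 2-fold with a pseudocount of 1 (0.56, 0.91 and -0.22).

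**Figure D4:**
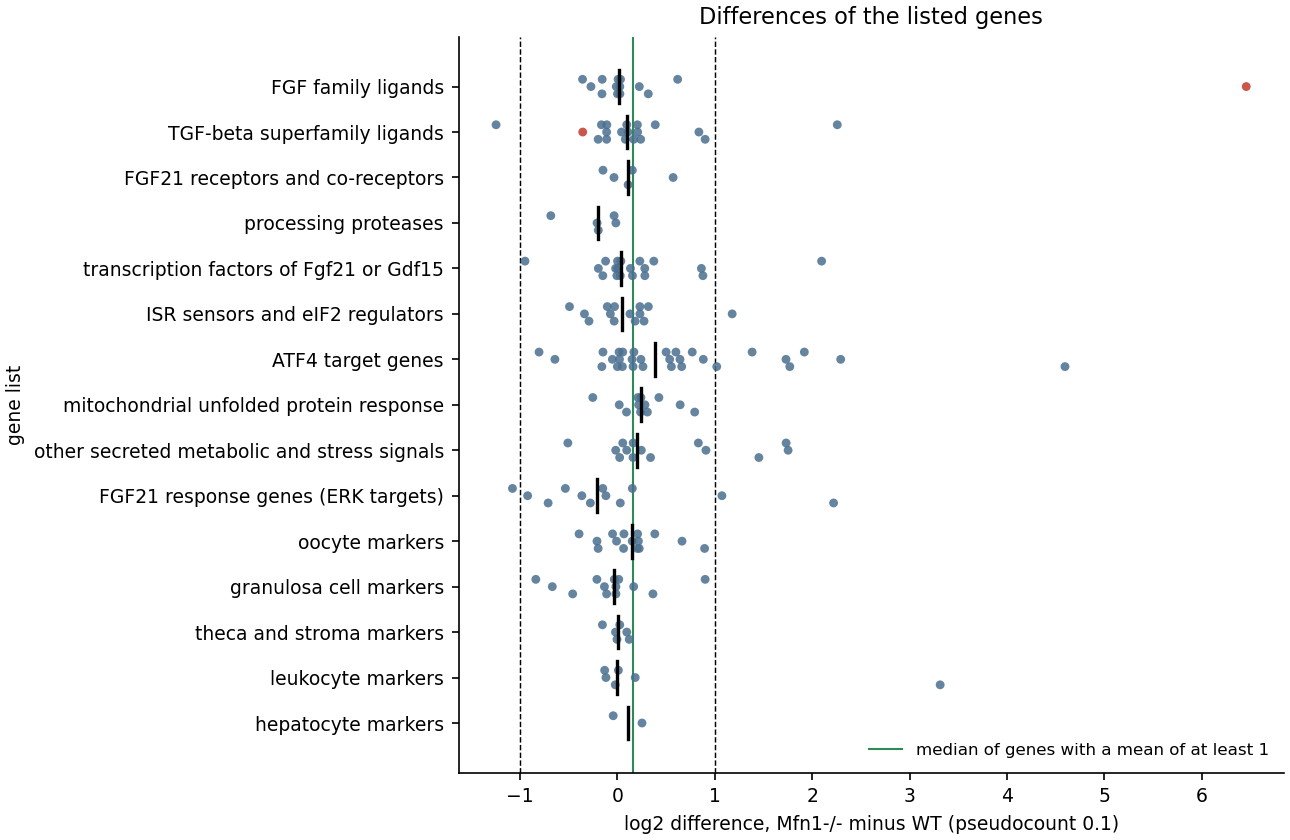
The log2 difference of Mfn1-/- minus WT means with a pseudocount of 0.1 (x) for the genes of 15 lists, with 1 point per gene, black bars at list medians, dashed lines at 2-fold and the green line at 0.16, the median of 6255 genes whose mean reached 1. Fgf21 and Gdf15 are red, at 6.46 and -0.35, and the ATF4 target genes have the highest list median, 0.38.

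The oocytes came out of follicles, so markers of other cells were looked at beside these results. In bulk libraries fewer cells of a type and less RNA per cell cannot be told apart. Of 14 granulosa cell markers 13 were analysed and 0 were called, against 4.89% called higher and 2.76% lower among all genes. Their summed level was 2.41 in Mfn1-/- against 1.79 in WT oocytes. The most abundant was Inha, the inhibin alpha gene, with means of 1.87 and 0.954 (log2 difference 0.90), and without it the sums were 0.540 and 0.838. Of the 13 differences 9 were below 0, the lowest at -0.84, where 56.7% of all genes were above 0. Means were under 0.1 in both genotypes for 8 of the 13, Fshr, Foxl2 and Amh among them, named after their values were seen. Of 11 theca and stroma markers 6 were analysed and 0 called, against the same 4.89% and 2.76% of all genes. Their summed level was 0.223 and 0.221, with Star the most abundant at 0.0845 and 0.105.

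Hepatocytes are the main source of FGF21 in the body. Of 10 hepatocyte markers only 2 had values. These were Apoa1, with means of 0.581 in Mfn1-/- against 0.471 in WT oocytes, and Apob, with 0.0133 and 0.0166. They summed to 0.594 and 0.488. Neither was called, where 4.89% of all genes were called higher and 2.76% lower. Apob is named after its values were seen. Among 9 leukocyte markers 6 had values. Of these Cd68, a lysosomal glycoprotein gene of macrophages, was called higher (16.7%, against 4.89% of all genes), with means of 7.58 and 0.672 (3.31). The other leukocyte markers, Lyz2, Csf1r, Itgam, Cd3e and Cd79a, also named after their values were seen, had means under 0.1 in both genotypes. The list summed to 7.67 in Mfn1-/- against 0.770 in WT oocytes, nearly all of it Cd68, and the part of these markers in the Fgf21 difference was not tested.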

How the data were processed

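Groups were taken from the sample titles. The submitters' processing notes name cutadapt, FastQC, STAR and DESeq with GRCm38 (mm10), and no versions are given in the sources used here. The deposited signal is a genotype mean of normalized counts for each gene, beside a total over the libraries, and how the counts were scaled is not given in the sources used here. For 100% of genes that total matched, to within 1%, the sum expected from 3 Mfn1-/- and 4 WT libraries, while the series' design text gives 3 for each genotype. The table's other columns hold the authors' own p-value, FDR, ratio and fold change of Mfn1-/- against WT and were not used. The number of unused columns with values of single samples was 0.

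The log2 difference used a pseudocount of 0.1 and a call was a difference past 2-fold. No test was run, since there is 1 value per genotype. To see whether values are per length, genes were split into 10 bins of exon length (GENCODE M21). Between the end bins the median length differed 23.4-fold and the 10th percentile of WT values, after the lowest value of 0.01 was subtracted, differed 13.3-fold the other way, so the levels were taken as roughly per length.

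The members and the 16 gene lists were chosen with earlier results of these data known. Named are Fgf21, Gdf15 and Mfn1, list members past 2-fold with a mean of at least 0.1 in a genotype and otherwise counts and ranges, the member of each list with the highest mean in either genotype, the 5 genes next in rank and the 5 nearest by log2 means to each member, and 3 neighbours on each side. Others are said to be chosen after their values were seen. Of the genes nearest to Gdf15, 1 is not reported here. Dele1 was found under an older name. A gene said to be not analysed here, or left out of the analysed part of a list, had no values under its name in the authors' table. Positions came from GENCODE M21 and promoters from RefSeq. Simulated means with known changes were used to test the code. Python 3.11.15, numpy 2.4.6, pandas 2.3.3, matplotlib 3.10.9 and blastn 2.17.0 were used. Alternatives were other pseudocounts, scalings, thresholds and gene filters.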

Additional observations from a re-analysis of the deposited data

How the results depend on the processing

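A pseudocount cannot change the sign of a difference, and both scalings lowered the differences only slightly. The directions of Fgf21 (higher) and Gdf15 (lower) in Mfn1-/- oocytes were therefore fixed in advance, and only the sizes are compared. The log2 differences of Fgf21 and Gdf15 were 7.24 and -0.42 with a pseudocount of 0.01, 4.14 and -0.14 with 1, 6.33 and -0.46 with means scaled to the same sum, 6.29 and -0.52 with the median of expressed genes subtracted, and 7.36 and -0.43 with no pseudocount, which was chosen after seeing the data. Fgf21 ranked 3 with a pseudocount of 1 and 2 with none, and 1 otherwise. Fgf21 reached the minimum mean of 1 only through its Mfn1-/- mean, so nothing is read from its rank under that filter. Gdf15 falls under a minimum mean of 1 and has no rank there.

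Genes past 2-fold numbered 1749, against 3922 with a pseudocount of 0.01, 321 with 1, 4831 with none, 561 with a mean of at least 1 and 233 past 4-fold. Among 15620 protein-coding genes 620 were higher (3.97%) and 235 lower (1.50%), so the shares of all genes beside the lists, 4.89% and 2.76%, would be smaller, the lower one most. ATF4 target genes past 2-fold numbered 7, all higher, against 10 with a pseudocount of 0.01 (9 higher and 1 lower). With none there were 11 (10 higher and 1 lower, against 12.8% and 8.35% of all genes). Otherwise only higher ones were called: 3 with a pseudocount of 1, 3 with a mean of at least 1 (of 10 left) and 2 past 4-fold. Past 4-fold 0.704% of all genes were higher and 0.315% lower. Herpud1 and Eif4ebp1 reached the minimum mean only through their Mfn1-/- means, so nothing is read from the count under that filter. A larger pseudocount lowers the counts past 2-fold by construction. Scaling to the same sum gave 887 genes higher and 757 lower (54.0% higher). Of 18 other named list genes past 2-fold, 5 stayed past it with a pseudocount of 1 and 16 under each scaling. The 5 were Herpud1, Cd68, Xbp1, Chac1 and Eif4ebp1. Their signs could not change under these settings, since the genes were picked as past 2-fold.

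No paired analysis was possible because the columns carry only genotype means, although the titles share the numbers 1 to 3. Leaving out each library and the replicate block were not run for the same reason. How far 1 library sets a genotype mean was not tested, and the precision of low means, such as those of Fgf21 in WT and of Gdf15 in both genotypes, is unknown.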
